A study of Mus musculus with 1 sample.

Results

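Lef1, Tcf7, Bach2, Satb1, Foxp1, Foxo1, Id3 and Ets1 encode transcription regulators that are known from naive and resting T cells. They were chosen by name with earlier results of these data known, and they are 8 of the 32285 genes counted in the library. Their transcripts were followed in the 1600 barcodes that held at least 1331 unique molecular identifiers (UMIs, the tags that mark single captured RNA molecules). A barcode is the tag of 1 droplet and stands for 1 cell, although a droplet can hold a pair of cells or free RNA.

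The library came from 1 vehicle-treated mouse of an autochthonous small cell lung cancer (SCLC) model on a C57BL/6 background. In this model Rb1 and Trp53 are deleted conditionally by Cre, which an adenoviral vector delivers through the trachea, so that the deletion is placed in the airway. The vehicle was phosphate-buffered saline, given every 3 days. T cells were enriched from 150 µl of blood by negative selection, and gene expression and T cell receptor (TCR) libraries were made from the same droplets. No other treatment group entered the comparisons, and there was 1 library, so no p-value could be had. All intervals are exact 95% intervals that cover counting error only, and they say nothing of how far mice differ.

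In a naive T cell, a small group of factors keeps the cell quiescent and circulating between lymph nodes. TCF-1, the product of Tcf7, and LEF1 are related HMG-box proteins that bind the same DNA core and act with beta-catenin or with Groucho/TLE corepressors. FOXO1 drives Il7r, Ccr7 and Klf2, and is moved out of the nucleus after antigen receptor signaling. BACH2 competes with AP-1 factors at effector genes. When CD8 T cells become cytotoxic, several of these genes are typically expressed at a lower level while granzymes, the proteases of cytotoxic granules, are switched on.

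The called barcodes held between 1334 and 18399 UMIs with a median of 3934.5. They were split by coreceptor: 369 were CD4-only (Cd4 UMIs and none of Cd8a or Cd8b1), 719 were CD8-only, 49 held both and 463 held neither. They were split again by whether they held 1 or more UMIs of Gzmk, Gzma or Gzmb, and by whether ribosomal protein genes made up less than 10% of their UMIs. This ribosomal share was far apart on either side of the limit, with a median of 2.21% in the 615 barcodes under it and 27.2% in those over it, and 54 barcodes were within 2 points of the limit. Against their labels as T cells, 84.1% of the called barcodes held a Cd3d, Cd3e or Cd3g UMI, and 101 carried 3 or more B cell markers. Most of the latter, 90, were among the barcodes with neither coreceptor.

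The comparisons rest on 5 groups. Over the ribosomal limit there were 216 CD4-only barcodes without granzyme (median 4155 UMIs), 413 CD8-only barcodes without granzyme (8023 UMIs) and 98 CD8-only barcodes with granzyme (5581.5 UMIs). In these, 99.5%, 99.5% and 99% held a CD3 UMI and 94.4%, 92.0% and 92.9% had a TCR clonotype. Under the limit and without granzyme there were 142 CD4-only (2719 UMIs) and 198 CD8-only barcodes (3381 UMIs). Of these, 85.9% and 82.3% held a CD3 UMI, and only 36.6% and 23.7% had a clonotype. Only 11 CD4-only barcodes over the limit held a granzyme UMI.

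The members lie on 6 chromosomes, with coordinates given in GRCm38.p6, the build named for the deposited files. Lef1 (ENSMUSG00000027985) spans chr3:131110297-131224357 and had 7586 UMIs in the called barcodes. Tcf7 (ENSMUSG00000000782) spans chr11:52246527-52283383 and had 4541. Bach2 (ENSMUSG00000040270), which encodes a BTB and leucine zipper repressor, spans chr4:32238413-32586109 and had 6309. A noncoding gene inside it, Bach2os, was counted apart with 48 UMIs, and whether counting used the strand is not given in the sources used here. Satb1 (ENSMUSG00000023927), a chromatin organizer of thymocytes and T cells, spans chr17:51736187-51833290 and had 5835. The forkhead genes Foxp1 (ENSMUSG00000030067), at chr6:98925342-99522746, and Foxo1 (ENSMUSG00000044167), at chr3:52268337-52350109, had 10892 and 1758 UMIs. FOXP1 is itself known as a keeper of T cell quiescence. Id3 (ENSMUSG00000007872), an inhibitor of E proteins without a DNA-binding domain, spans chr4:136143822-136145392 and had only 164 UMIs. Ets1 (ENSMUSG00000032035), the founding ETS factor and a regulator of survival and cytokine genes in T cells, spans chr9:32636241-32757820 and had 7357. UMI counts carry no scale per transcript length here, so each gene is compared between groups and never with another gene.

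Because all members but Id3 bind DNA, the start sites of the set were read for the cores that these families recognize. RefSeq windows of 300 bases (250 before and 50 after an annotated start, GRCm38.p6) were found for 7 members, 17 windows in all, and Ets1 had none in the table. The TCF/LEF core CTTTGA stood in 3 of the 17 windows, 1 each of Lef1, Bach2 and Foxp1, against 16.0% of the 32817 windows of all genes. The forkhead motif GTAAACA stood in 1, of Tcf7, against 3.65% of all. The ETS cores GGAAGT or GGAAAT stood in 9 windows of 4 members (37.1% of all), the E boxes CAGGTG or CAGCTG in 7 windows of 4 members (33.0% of all), and the BACH2 and AP-1 core TGAGTCA in 0 of 17 (5.20% of all). Both strands were searched. Windows of the same gene can overlap, and a pair of Lef1 windows shares the same GGAAAT, which was counted in both. The windows are thus not separate counts, and no excess is read from these shares. The only Foxo1 window and the only Id3 window held none of the motifs. Members' windows had a median GC content of 60% against 52.7% over all windows.

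The 4 windows that hold a TCF/LEF or forkhead core are shown in the direction of transcription, because each has a core of a member's family in the window of a member. No excess over all windows is read from them. Capitals mark every searched motif on either strand, so that CTTTGA on the opposite strand reads as TCAAAG. They are Lef1 at chr3:131156044-131156343 (plus strand), Tcf7 at chr11:52282546-52282845 (minus strand), Bach2 at chr4:32417185-32417484 (plus strand) and Foxp1 at chr6:99266466-99266765 (minus strand). All are starts inside the gene's span, not its outermost start.
Lef1: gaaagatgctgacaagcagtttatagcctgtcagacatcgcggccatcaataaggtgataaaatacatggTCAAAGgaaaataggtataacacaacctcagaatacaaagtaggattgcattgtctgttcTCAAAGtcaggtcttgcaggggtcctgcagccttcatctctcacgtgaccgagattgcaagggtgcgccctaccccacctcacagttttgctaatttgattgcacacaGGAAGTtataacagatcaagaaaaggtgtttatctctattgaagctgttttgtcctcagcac
Tcf7: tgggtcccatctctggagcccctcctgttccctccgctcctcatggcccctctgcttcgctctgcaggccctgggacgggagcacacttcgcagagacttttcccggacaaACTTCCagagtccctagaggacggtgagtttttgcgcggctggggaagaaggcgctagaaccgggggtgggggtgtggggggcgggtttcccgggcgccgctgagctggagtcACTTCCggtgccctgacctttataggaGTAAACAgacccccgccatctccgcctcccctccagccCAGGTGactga
Bach2: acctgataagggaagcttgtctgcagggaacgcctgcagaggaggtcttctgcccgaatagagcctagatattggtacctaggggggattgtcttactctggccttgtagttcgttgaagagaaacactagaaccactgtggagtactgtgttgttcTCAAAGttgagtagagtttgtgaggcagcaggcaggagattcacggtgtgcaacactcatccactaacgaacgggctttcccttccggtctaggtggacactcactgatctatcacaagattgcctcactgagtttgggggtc
Foxp1: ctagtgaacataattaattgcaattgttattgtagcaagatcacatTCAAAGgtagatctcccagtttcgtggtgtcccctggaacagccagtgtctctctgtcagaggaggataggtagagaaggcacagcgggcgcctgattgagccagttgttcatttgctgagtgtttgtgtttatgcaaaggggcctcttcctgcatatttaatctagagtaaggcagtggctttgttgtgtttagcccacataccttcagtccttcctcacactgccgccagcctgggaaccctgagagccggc
The Lef1 window holds a pair of TCF/LEF cores and an ETS core. The Tcf7 window has GTAAACA beginning 1 base after the start base, with ETS cores on the opposite strand and an E box. A match describes letters only, and no binding was measured.

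The first comparison asked how the 8 genes differed between CD4-only and CD8-only barcodes, holding granzyme at 0 and the ribosomal share over 10%. All 8 pooled levels were higher in the CD4-only barcodes, by 1.21-fold to 1.84-fold, but 4 of the 8 were past a 1.5-fold limit, and most of the difference in Lef1, Bach2 and Foxp1 was absent between barcodes of like depth. Of all 7561 genes with at least 50 UMIs in both groups together, 21.1% were past the limit toward CD4-only and 5.81% toward CD8-only. The median log2 ratio of the members was 0.57 against 0.25 over all genes.

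Levels are given as UMIs of the gene per 10000 UMIs of the group. Lef1 stood at 9.01 (8.43 to 9.62) in CD4-only and 6.90 (6.62 to 7.19) in CD8-only barcodes, a ratio of 1.31 (1.21 to 1.41). Over single barcodes the 10th percentile, median and 90th percentile of Lef1 were 0, 8.32 and 21.0 in CD4-only and 1.57, 6.38 and 14.4 in CD8-only barcodes, so the ranges overlapped widely. Tcf7 stood at 7.71 and 5.39, a ratio of 1.43 (1.31 to 1.56). For this HMG-box pair the pooled intervals were apart while the ranges over single barcodes overlapped. Both genes had the wider range in the CD4-only barcodes, which were the shallower group (median 4155 against 8023 UMIs).

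Ets1 differed most, at 8.75 (8.17 to 9.35) against 4.74 (4.51 to 4.99), a ratio of 1.84 (1.69 to 2.00). Its medians over barcodes were 7.86 and 4.34, and the 10th percentile of the CD4-only barcodes, 3.16, was still above that of the CD8-only barcodes, 1.26. Satb1, a gene whose product helps direct CD4 and CD8 lineage genes in the thymus, stood at 5.78 against 3.61, a ratio of 1.60 (1.45 to 1.77). Bach2 stood at 5.61 against 3.59, a ratio of 1.56 (1.41 to 1.73). The forkhead genes were closer, with ratios of 1.31 (1.21 to 1.41) for Foxp1 and 1.21 (1.01 to 1.44) for Foxo1. Id3 was past the limit by its ratio of 1.55, but on 26 against 56 UMIs its interval ran from 0.931 to 2.50, and a difference was not detectable at this depth.

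Levels of several members moved with the depth of the barcode. Among CD8-only barcodes, Bach2 stood at 7.51 per 10000 in those under 3000 UMIs, 5.64 at 3000 to 6000, 3.16 at 6000 to 9000 and 3.15 at 9000 or more. Foxp1 stood at 11.1, 10.2, 6.68 and 6.32 in the same classes, while Tcf7 stood at 5.92, 6.07, 5.82 and 4.97. The shallow classes were thus the high ones for Bach2 and Foxp1, and the CD8-only barcodes were the deeper group. Between 116 CD4-only and 101 CD8-only barcodes of 3000 to 6000 UMIs, a choice made after seeing the data, Ets1 kept a ratio of 1.57 (1.35 to 1.84), Satb1 1.54 (1.28 to 1.86) and Tcf7 1.34 (1.15 to 1.57). In contrast, Lef1 stood at 1.03 (0.898 to 1.18), Bach2 at 1.02 (0.856 to 1.21), Foxp1 at 0.976 (0.858 to 1.11) and Foxo1 at 1.05 (0.777 to 1.43). There 2 of 7 members were past the limit toward CD4-only, where 12.7% of 3137 genes were, with 5.29% toward CD8-only. The part of depth and of ribosomal share, which was higher in the deeper CD8-only barcodes (median 35.2% against 23.5%), was not tested further.

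Under the ribosomal limit, Satb1 alone of 7 members tested was past 1.5-fold. With 142 CD4-only and 198 CD8-only barcodes, Satb1 stood at 28.7 against 17.9 per 10000, a ratio of 1.60 (1.48 to 1.73). Lef1 had a ratio of 1.32 (1.22 to 1.43), Ets1 1.27 (1.17 to 1.37), Tcf7 1.25 (1.09 to 1.43), Bach2 1.21 and Foxp1 1.20, and Foxo1 was level at 0.986 (0.831 to 1.17). Of the genes tested there, 8.33% were past the limit toward CD4-only and 11.5% toward CD8-only, and the median of all genes was -0.01 on the log2 scale.

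**Figure D1:**
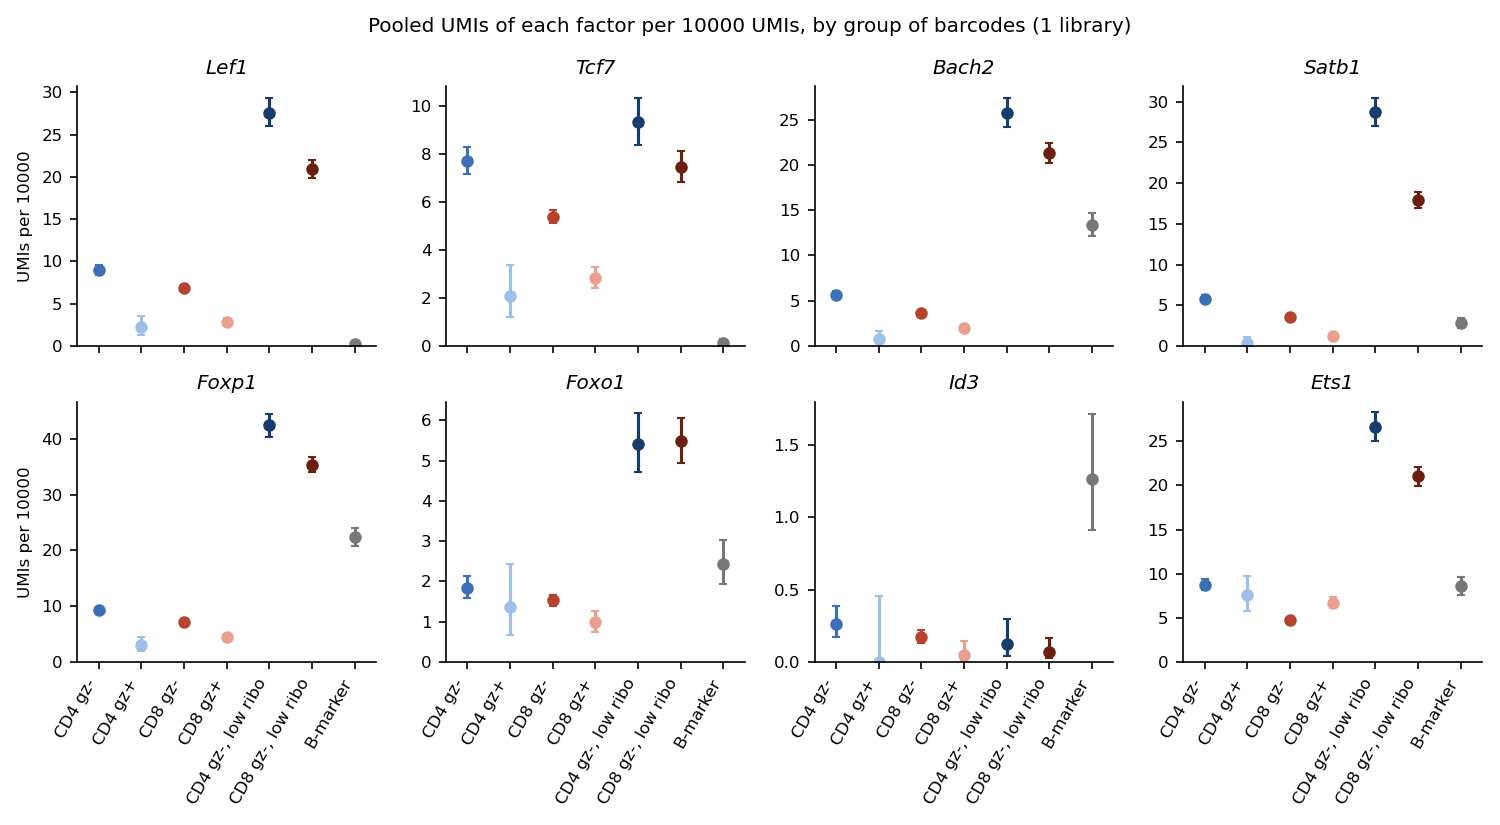
Pooled level of each of the 8 genes (UMIs per 10000, with exact 95% counting intervals) in CD4-only and CD8-only barcodes by granzyme and ribosomal share, and in barcodes with B cell markers and no CD3 UMI; gz marks a granzyme UMI and low ribo a share under 10%. The levels with granzyme lie below those without for all genes but Ets1 in the CD8-only barcodes, 7 of the 8 genes are highest in T cell barcodes under the ribosomal limit, and Id3 is highest in the B-marker barcodes.

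The second comparison set CD8-only barcodes with a granzyme UMI against those without. Here 7 of the 8 genes were at least 1.5-fold lower with granzyme and none was past the limit upward. Ets1 was higher by 1.42-fold, which lay inside the quartiles of all genes. Of 7234 genes tested, 9.94% were past the limit downward and 23.2% upward. The median log2 ratio was -0.91 over the members and 0.22 over all genes.

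Satb1 differed most among the well-counted members, at 1.18 (0.922 to 1.49) against 3.61 (3.41 to 3.82) per 10000, a ratio of 0.327 (0.253 to 0.415). Its median over barcodes was 0 with granzyme and 3.38 without, and the 90th percentile with granzyme, 3.49, was about at the median without. Lef1 stood at 2.86 against 6.90, a ratio of 0.414 (0.353 to 0.484), with medians over barcodes of 1.89 and 6.38. Tcf7 stood at 2.84 against 5.39, a ratio of 0.527 (0.448 to 0.617), with medians of 2.02 and 5.04. Bach2 stood at 1.93 against 3.59, a ratio of 0.537 (0.440 to 0.650). These 4 factors were low in most granzyme-positive barcodes, and some barcodes of both groups held none of them.

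Foxp1 stood at 4.44 against 7.07, a ratio of 0.628 (0.551 to 0.713), and Foxo1 at 0.981 against 1.53, a ratio of 0.643 (0.482 to 0.843). Id3 had 3 UMIs with granzyme and 56 without, a ratio of 0.292 (0.0585 to 0.899). Ets1 was the exception in the set, at 6.71 (6.08 to 7.40) against 4.74 (4.51 to 4.99), a ratio of 1.42 (1.27 to 1.58). This ratio lay inside the quartiles of all genes, -0.15 to 0.55 on the log2 scale. The ribosomal share was lower with granzyme (median 19.5% against 35.2%). Leaving ribosomal and mitochondrial UMIs out of the denominators moves every log2 ratio here by -0.27, that of Ets1 included. Its median over barcodes was 6.0 with granzyme and 4.34 without, and 95.9% and 93.9% of the barcodes held an Ets1 UMI.

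**Figure D2:**
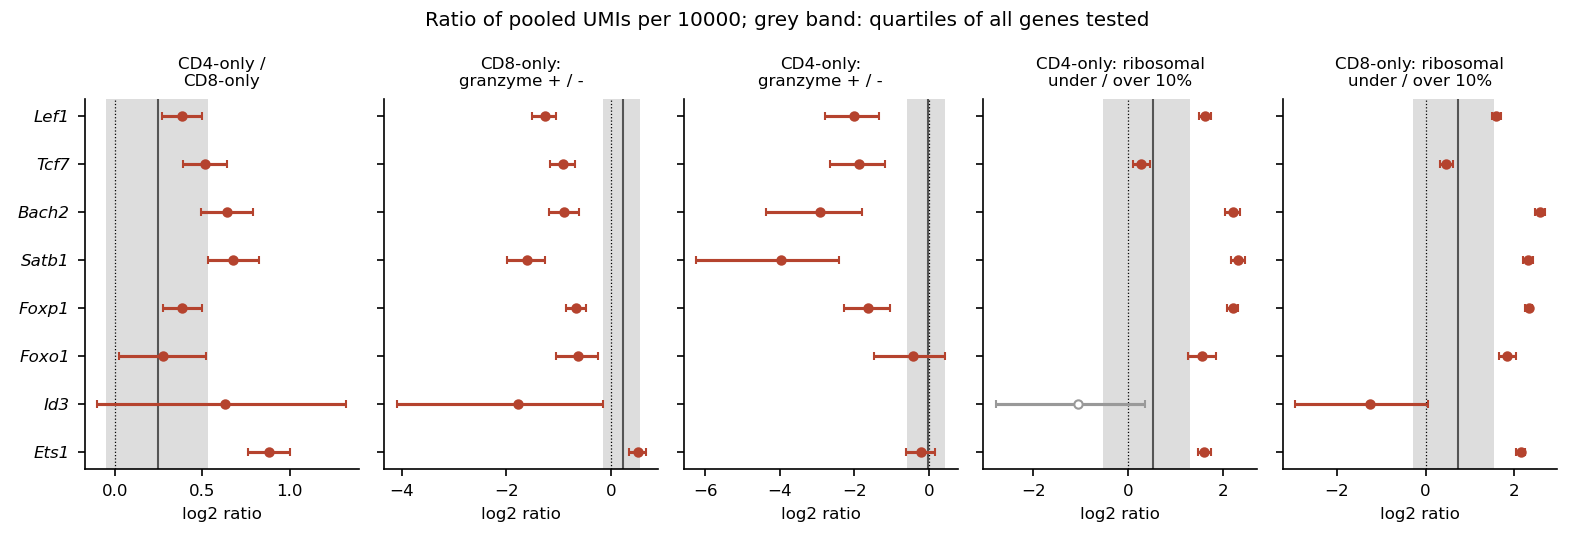
Ratio of the pooled level (log2) of each gene in the 5 comparisons, with exact 95% counting intervals; the grey line and band give the median and quartiles of all genes with at least 50 UMIs, and an open point marks a gene under that number. With granzyme, members lie left of the band, except Ets1 in both lineages and Foxo1 in CD4-only barcodes, and they lie right of it under the ribosomal limit, except Tcf7 and Id3.

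The groups differed in depth and in signs of doublets, and the difference was larger between barcodes of like depth. Granzyme-positive barcodes had a median of 5581.5 UMIs against 8023, and a ribosomal share of 19.5% against 35.2%. At 3000 to 6000 UMIs (56 against 101 barcodes, chosen after seeing the data), 6 of 7 members tested were past the limit downward, where 14.4% of genes were (22.8% upward). Satb1 had 7 UMIs against 182 there, a ratio of 0.0672 (0.0266 to 0.141), Bach2 a ratio of 0.229 (0.155 to 0.329), Lef1 0.251 (0.188 to 0.330), Foxp1 0.321 and Tcf7 0.401. Ets1 kept its direction at 1.31 (1.09 to 1.58).

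A few deep barcodes held much of what the granzyme-positive group had. Of its 71 Satb1 UMIs, 52 came from the 14 barcodes with 9000 UMIs or more, a level of 3.26 per 10000 against 0.266 in the barcodes of 3000 to 6000 UMIs. Single barcodes held 49 of the 267 Foxp1 UMIs and 25 of the 116 Bach2 UMIs. In 9 of the 91 granzyme-positive barcodes with a productive TCR beta chain there were 2 or more such chains (9.89%), against 13 of 377 (3.45%) without granzyme. No doublet was removed from the main values. Without the barcodes of 2 or more beta chains, 7 of 8 members were past the limit downward, with a median of -1.0 on the log2 scale. Without those of 9000 UMIs or more, 6 of 7 were, with a median of -1.34. The share of all genes past the limit was not counted in either subset.

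The granzyme calls rest on as little as 1 UMI, so the level was followed by the number of granzyme UMIs. With 0, 1, 2 to 4 and 5 or more granzyme UMIs there were 413, 20, 18 and 60 CD8-only barcodes. Tcf7 stood at 5.39, 4.41, 3.38 and 2.12 per 10000 in this order, and Satb1 at 3.61, 2.24, 1.10 and 0.826. Lef1 was low already with 1 granzyme UMI, at 6.90, 2.32, 1.92 and 3.33. Bach2 ran likewise at 3.59, 1.39, 1.01 and 2.40, and Foxp1 at 7.07, 3.64, 3.75 and 4.93. In the last class, however, single barcodes held 49 of the 179 Foxp1 UMIs and 25 of the 87 Bach2 UMIs. Whether these levels rise again there without such barcodes was not tested. Ets1 was level until the last class, at 4.74, 4.87, 5.12 and 7.85. Of neighbouring classes of Tcf7 and Satb1, the intervals were apart between 0 and 1 granzyme UMI for Satb1 alone.

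**Figure D3:**
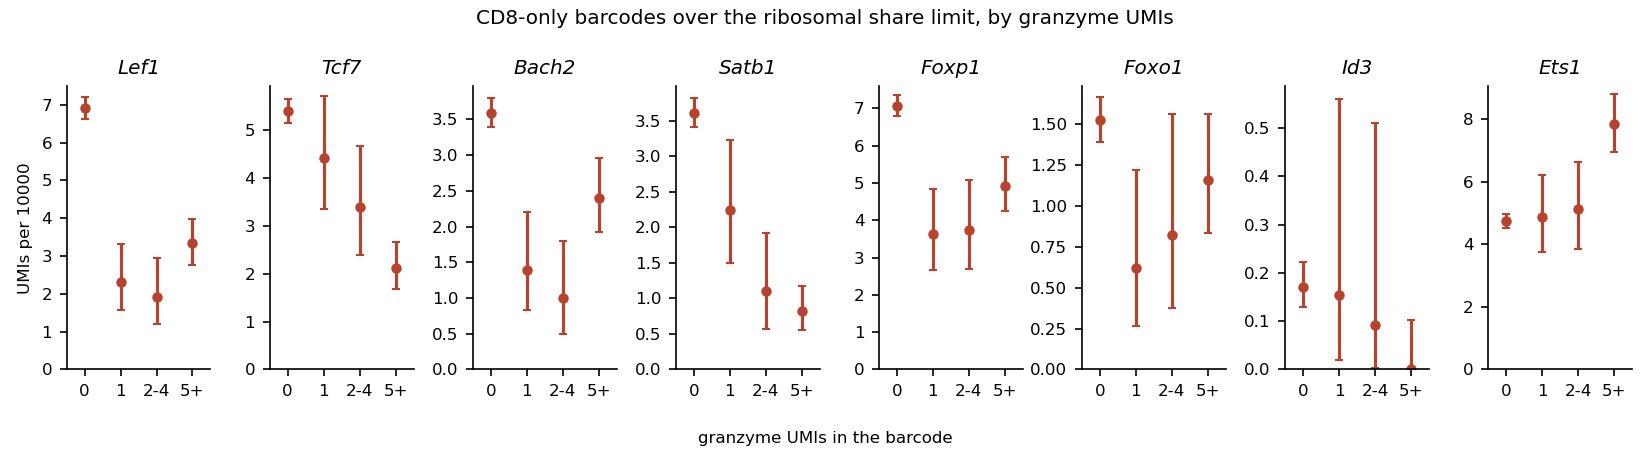
Level of each gene (UMIs per 10000, exact 95% counting intervals) in CD8-only barcodes over the ribosomal limit with 0, 1, 2 to 4 and 5 or more granzyme UMIs. Tcf7 and Satb1 are lower in each class than in the one before, Lef1, Bach2 and Foxp1 are lowest in the middle classes, and Ets1 is highest with 5 or more. In the last class, single barcodes held 49 of the 179 Foxp1 UMIs and 25 of the 87 Bach2 UMIs.

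Used alone, each granzyme gave fewer members past the limit downward than the 3 together, and a barcode can carry more than 1 of them. Downward were 6 of 8 with Gzmk, where 12.5% of genes were, 4 of 8 with Gzma (15.8%) and 5 of 8 with Gzmb (12.6%). Upward was Ets1 with Gzmk alone, where 25% of genes were, against 30.5% with Gzma and 27.3% with Gzmb. In the 74 barcodes with Gzmk, the granzyme of many memory cells, the ratio to barcodes without granzyme was 0.213 (0.147 to 0.3) for Satb1, 0.423 for Lef1, 0.496 for Tcf7 and 1.5 for Ets1. In the 32 barcodes with Gzma the same ratios were 0.352, 0.575, 0.462 and 1.41, while Bach2 (0.693, 0.507 to 0.928), Foxp1 (0.809, 0.661 to 0.981) and Foxo1 (0.937, 0.611 to 1.38) stayed inside the limit. In the 49 barcodes with Gzmb, a main executor of target cell death, they were 0.417, 0.491, 0.390 (0.301 to 0.498) and 1.38. The differences between granzymes were not tested.

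To see single cells at 1 depth, every barcode was thinned to 1331 UMIs. Without granzyme, 24.2% (20.2 to 28.6) of the CD8-only barcodes then held neither Lef1 nor Tcf7, and with granzyme 55.1% (44.7 to 65.2) did. Both genes were seen in 28.1% (23.8 to 32.7) without and 6.12% (2.28 to 12.9) with granzyme. By gene, 39.5% of the barcodes without granzyme held a Satb1 UMI and 7.14% of those with, 54.5% against 26.5% a Lef1 UMI, and 49.2% against 57.1% an Ets1 UMI. Before thinning, 87.9% and 23.5% held a Satb1 UMI. Over the 8 genes, a barcode showed a median of 3 without granzyme and 2 with, and 14 of 98 granzyme-positive barcodes showed none against 11 of 413.

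Barcodes with B cell markers and without a CD3 UMI were taken as a background of free RNA for the T cell genes. Of these 85 barcodes (median 3646 UMIs), 2.35% held a Lef1 UMI after thinning and 0 held Tcf7, which allows a share of up to 4.25% by the exact interval. Their pooled levels were 0.211 for Lef1 and 0.121 for Tcf7, both below every T cell group. Asking for no CD3 UMI can leave out barcodes that took up free T cell RNA, so this background can be too low. The other members were not specific to T cells in this blood sample. Bach2, which is also a known B cell regulator, stood at 13.4 per 10000 in the B-marker barcodes, Foxp1 at 22.4, Ets1 at 8.60, Satb1 at 2.78 and Foxo1 at 2.44. Id3 reached 1.27 there against 0.171 in CD8-only barcodes without granzyme.

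**Figure D4:**
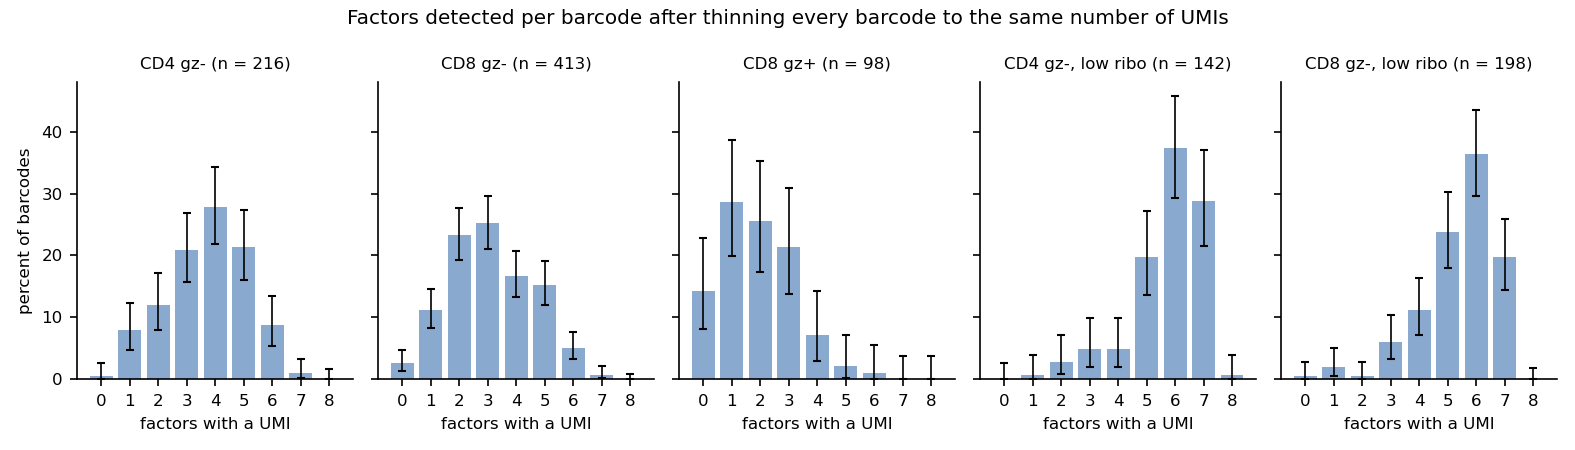
Share of barcodes (percent, exact 95% intervals) that showed 0 to 8 of the genes after thinning to 1331 UMIs, in 5 groups. The CD8-only barcodes with granzyme pile up at few genes (median 2), those without at 3, the CD4-only barcodes at 4, and both groups under the ribosomal limit at 6.

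The 11 granzyme-positive CD4-only barcodes differed from the 216 without in the same direction for most genes. Past the limit downward were 5 of 7 members tested, where 25% of 3506 genes were (19% upward), and the medians were -1.87 for the members and -0.03 for all genes. Lef1 had 18 UMIs and stood at 2.23 against 9.01, a ratio of 0.247 (0.146 to 0.393), and Tcf7 had a ratio of 0.273 (0.158 to 0.439). Bach2, on 6 UMIs, had a ratio of 0.132 (0.0484 to 0.290), Satb1, on 3 UMIs, 0.0642 (0.0132 to 0.189), and Foxp1 0.322 (0.205 to 0.481). Foxo1 at 0.738 (0.362 to 1.35) and Ets1 at 0.863 (0.654 to 1.12) had intervals across 1. Id3 had 0 UMIs, and its level in the barcodes without granzyme, 0.264, is below the 0.371 that a count of 0 allows. With few barcodes, 1 or 2 cells weigh heavily in each value.

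Under the ribosomal limit, 10 CD8-only barcodes held granzyme and 198 did not. Past the limit downward were 6 of 7 members, where 33% of the genes were (18.5% upward), with medians of -1.62 and -0.15. Satb1 had 6 UMIs and a ratio of 0.0850 (0.0311 to 0.185), Lef1 a ratio of 0.207 (0.120 to 0.332), Bach2 0.274, Foxo1 0.324, Foxp1 0.337 and Tcf7 0.511, and Ets1 stood at 0.834 (0.645 to 1.06). All 6 Satb1 UMIs were in 1 barcode. Single barcodes also held 11 of the 17 Lef1 UMIs, 11 of 15 of Tcf7, 26 of 47 of Foxp1, 13 of 23 of Bach2, 28 of 69 of Ets1 and 3 of 7 of Foxo1. These levels thus rest largely on single barcodes, which the intervals do not cover.

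The third comparison set barcodes under the 10% ribosomal limit against those over it, within each lineage and without granzyme. The members were higher under the limit by up to 5.93-fold, except for Id3, and Tcf7 was inside the 1.5-fold limit in both lineages. Among CD8-only barcodes 6 of 8 were past the limit upward and 1, Id3, downward, and among CD4-only barcodes 6 of 7 were past it upward. The background was high, however, with 54.1% of 7592 genes upward and 19.8% downward in CD8-only barcodes, and 48.3% and 24.2% of 4707 genes in CD4-only barcodes. The median log2 ratio was 2.00 over the members and 0.72 over all genes for CD8, and 1.62 and 0.52 for CD4.

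Bach2 stood at 21.3 (20.2 to 22.4) under against 3.59 over the limit in CD8-only barcodes, a ratio of 5.93 (5.49 to 6.41), and at 25.7 against 5.61 in CD4-only barcodes, a ratio of 4.59 (4.14 to 5.10). Its median over CD8-only barcodes was 19.4 under and 2.78 over, and the 10th percentile under, 3.85, was above the median over. Foxp1 stood at 35.4 against 7.07 (ratio 5.0, 4.73 to 5.30) and at 42.4 against 9.23 (ratio 4.60, 4.24 to 4.99). Its 10th percentile under the limit in CD8-only barcodes, 14.8, was about the 90th percentile over it, 15. Satb1 had ratios of 4.96 in CD8-only and 4.97 in CD4-only barcodes. In CD4-only barcodes the Foxp1 ranges overlapped, with a 10th percentile of 9.44 under the limit and a 90th percentile of 21.7 over it.

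Ets1 stood at 21.0 against 4.74 in CD8-only barcodes (ratio 4.43, 4.12 to 4.76) and at 26.6 against 8.75 in CD4-only barcodes (ratio 3.04, 2.78 to 3.33). Lef1 had ratios of 3.03 (2.83 to 3.23) and 3.06 (2.80 to 3.35), and Foxo1 of 3.59 (3.14 to 4.11) and 2.93 (2.40 to 3.59). Tcf7, the relative of Lef1, stood at 7.45 against 5.39 in CD8-only barcodes, a ratio of 1.38 (1.25 to 1.52), and at 9.33 against 7.71 in CD4-only barcodes, a ratio of 1.21 (1.06 to 1.37). Both ratios were below the median of all genes. The direction of Tcf7 depended on the denominator. Without ribosomal and mitochondrial UMIs it stood at 8.16, 7.50 and 8.98 in CD8-only barcodes with shares under 2%, 2 to 5% and 5 to 10%. At 10 to 20%, 20 to 30% and 30% or more it stood at 8.05, 6.93 and 8.91. In CD4-only barcodes the same classes gave 10.6, 9.26 and 9.94, then 10.2, 10.7 and 11.1. Id3 had 5 UMIs under the limit in each lineage, with ratios of 0.418 (0.131 to 1.03) and 0.480 (0.144 to 1.27), so that its direction was not resolved at this depth.

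The ratio went with the length of genome a gene spans, over all genes and over the members. Across 7450 genes with a span in CD8-only barcodes, Spearman's rho between span and ratio was 0.799, and across 4637 genes in CD4-only barcodes 0.817. Genes are not independent replicates, all share the same barcodes, and the values are a description. Genes spanning under 10 kb had a median log2 ratio of -0.83 in CD8-only barcodes, those of 10 to 50 kb 0.64, those of 50 to 100 kb 1.64 and those of 100 kb or more 2.09. Past the limit upward were 7.80%, 52.2%, 92.7% and 97.3% of these genes. Id3 spans 1571 bases and Tcf7 36857, and the other 6 members span between 81773 (Foxo1) and 597405 bases (Foxp1). With granzyme, rho over all genes was -0.0558, and at 3000 to 6000 UMIs it was -0.259.

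**Figure D5:**
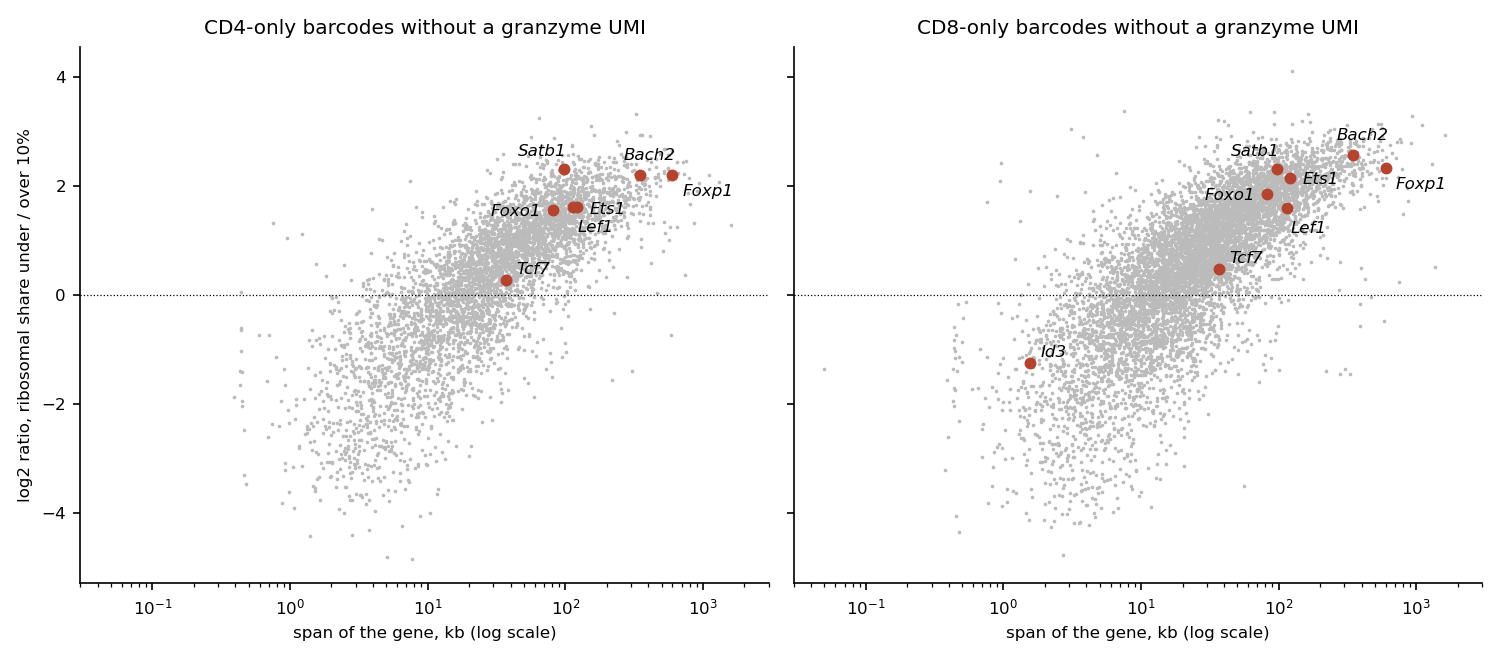
Ratio of pooled levels under against over the ribosomal limit (log2) by the genomic span of the gene (log axis), for CD4-only and CD8-only barcodes, with the members tested named over all genes tested. These are 8 in CD8-only and 7 in CD4-only barcodes, where Id3 had too few UMIs. The members follow the rise over all genes up to Foxp1 at 597405 bases. At the short and low end are Tcf7 and, in CD8-only barcodes, Id3 at 1571 bases.

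Several measures moved with the ribosomal limit beside the members. Malat1, a nuclear noncoding RNA, made up 2.07% of the UMIs of CD8-only barcodes under the limit and 0.594% over it, and 3.01% against 1.22% in CD4-only barcodes. The median mitochondrial share was 3.31% against 1.48% and 2.65% against 1.66%. Of CD8-only barcodes with a productive beta chain, 5 of 47 under the limit had 2 or more (10.6%), against 13 of 377 over it (3.45%). In CD4-only barcodes 2 of 49 (4.08%) and 5 of 200 (2.5%) did. Without such barcodes the members' median log2 ratio was 2.01 in CD8-only and 1.61 in CD4-only barcodes. The fall in clonotyped barcodes was given above. The part of these measures in the members' ratios was not tested further. Among clonotyped CD8-only barcodes alone (47 against 380), Bach2 kept a ratio of 4.64 (4.09 to 5.26), Satb1 4.56, Foxp1 4.33, Ets1 4.32, Foxo1 3.06 and Lef1 2.40 (2.13 to 2.70), and Tcf7 stood at 1.30. The B-marker barcodes split the same way: Bach2 stood at 42.0 per 10000 in 23 barcodes under the limit and 7.13 in 62 over it, and Foxp1 at 58.1 against 14.6.

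Within the barcodes under the limit, Lef1 was highest where the ribosomal share was lowest. In CD4-only barcodes it stood at 32.4, 25.5 and 21.2 per 10000 for shares under 2%, 2 to 5% and 5 to 10%, and at 7.93, 9.14 and 9.82 for 10 to 20%, 20 to 30% and 30% or more. In CD8-only barcodes it stood at 22.5, 20.6 and 18.5 and then at 10.1, 8.51 and 6.44. The step of Lef1 was thus at the limit, with a slope in opposite directions over it in the lineages. Other members differed. Over the limit, Foxp1, Satb1 and Ets1 fell in both lineages by these levels, Ets1 from 11.6 to 6.06 in CD4-only and from 7.29 to 4.34 in CD8-only barcodes. A larger ribosomal share by itself lowers such levels. Without ribosomal and mitochondrial UMIs, Satb1 in CD4-only barcodes stood at 8.07, 7.79 and 8.08 and Foxp1 at 12.6, 13.9 and 11.4. Ets1 still fell, from 14.1 to 9.66 in CD4-only and from 9.01 to 7.17 in CD8-only barcodes. In CD8-only barcodes Bach2 fell from 10.8 to 5.04, Foxp1 from 17.1 to 10.6, Lef1 from 12.6 to 10.7 and Satb1 from 6.36 to 5.58. Tcf7 did not fall there, with 8.05 at 10 to 20% and 8.91 at 30% or more. Lef1 rose in CD4-only barcodes, from 9.65 to 15.6. Tcf7 showed little step in CD4-only barcodes, at 8.92 for 5 to 10% and 8.38 for 10 to 20%.

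Further splits used genes that mark activated or specialized T cells. Of the 216 CD4-only barcodes, 12 held a UMI of Foxp3, the defining factor of regulatory T cells. Tcf7 stood at 3.76 against 7.93 in these (ratio 0.475, 0.284 to 0.747) and Satb1, a gene that regulatory T cells are known to hold low, at 2.38 against 5.96 (ratio 0.399, 0.205 to 0.702). Foxo1 was past the limit upward at 1.55, with an interval from 0.827 to 2.67. That makes 2 of 7 downward and 1 upward, where 24.1% and 16.3% of the genes were. Ets1 was level at 0.996 (0.718 to 1.35) and Lef1 and Bach2 both had ratios of 0.805, with intervals across 1.

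A UMI of S100a4 or Ccl5, genes of antigen-experienced cells, was found in 50 of the 216 CD4-only barcodes. Satb1 stood at 1.89 against 7.32 in them (ratio 0.259, 0.191 to 0.343), Lef1 at 4.0 against 11 (ratio 0.364, 0.295 to 0.444), Bach2 at 3.18 against 6.57 (0.484) and Foxp1 at 5.60 against 10.7 (0.525). These are 4 of 7 downward, where 10.8% of the genes were (13.8% upward). Tcf7 at 0.827 (0.698 to 0.977), Foxo1 at 0.903 and Ets1 at 0.972 stayed inside the limit. In the 141 of 413 CD8-only barcodes with such a UMI, Lef1 (0.566, 0.515 to 0.622) and Bach2 (0.643, 0.565 to 0.729) were past the limit, 2 of 8, where 6.93% of the genes were (6.28% upward), and Satb1 stood at 0.915 (0.812 to 1.03). Lef1 and Bach2 were lower in both lineages, and the ratio of Satb1 was 0.259 in CD4-only and 0.915 in CD8-only barcodes, a difference that was not tested. Barcodes with such a UMI were also the deeper ones. Their median was 4990.5 UMIs against 3792.5 in CD4-only and 9463 against 7554.5 in CD8-only barcodes. Ratios between barcodes of like depth are not given for this split.

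A further split came from clonal expansion as read in the TCR library. In 55 CD8-only barcodes whose clonotype had 2 or more cells, against 416 with a clonotype of 1 cell, 7 of 8 members were past the limit downward, where 14.7% of 7085 genes were (21.1% upward). Satb1 had a ratio of 0.326 (0.223 to 0.460), Tcf7 0.443 (0.343 to 0.563), Lef1 0.486 (0.391 to 0.597), Bach2 0.495, Foxo1 0.568 and Foxp1 0.619. Id3 had 0 against 51 UMIs, and its level in the single-cell clonotypes, 0.150 per 10000, compares with the 0.102 that a count of 0 allows. Ets1 was higher at 1.40 (1.20 to 1.62), inside the quartiles of all genes (-0.29 to 0.51 on the log2 scale). Leaving out ribosomal and mitochondrial UMIs moves every log2 ratio of this split by -0.25. Granzyme-positive barcodes were in both groups, so this split is not apart from the second comparison. The groups also differed in depth, with a median of 5410 UMIs in the expanded clonotypes against 8236. Their median ribosomal shares were 20.1% and 34.9%. Ratios between barcodes of like depth are not given for this split either.

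Genes that are known to work with these factors were counted from lists chosen with earlier results known. With granzyme in CD8-only barcodes, the counts stand beside 23.2% of all genes upward and 9.94% downward. Of 20 homing and quiescence genes, 8 were past the limit downward and 0 upward. The lowest were Igfbp4 (ratio 0.0361), Dapl1 (0.0732) and Ccr7, the receptor that brings T cells to lymph nodes (0.171, 0.132 to 0.218), while Klf2 stood at 1.39 (1.29 to 1.5). Of 12 effector and memory factors tested, 8 were past it upward, led by Bhlhe40 (18.9), Zeb2 (15) and Rora (8.64), and Ikzf2 alone downward (0.411). Of 12 relatives of the members, 6 were upward and 2 downward. Id2, the paralog of Id3, had a ratio of 4.58 (3.94 to 5.33) and Foxp4, a paralog of Foxp1, 2.69, while Foxo3, a paralog of Foxo1, stood at 0.423 (0.198 to 0.803). Among 9 TCF/LEF partners, 3 were upward, with Cited2 at 2.74, and none downward, a small list for a background of 23.2%.

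Between CD4-only and CD8-only barcodes, where 21.1% of all genes were past the limit toward CD4-only and 5.81% toward CD8-only, 8 of 20 homing genes were toward CD4-only and 1 toward CD8-only, with Igfbp4 at 2.64, Btg2 at 2.01 and S1pr1, the receptor for exit from lymph nodes, at 1.85, and Dapl1 at 0.354. Of 12 effector factors, 7 were higher in CD4-only barcodes, led by Maf (30, 12.9 to 85.2), Rora (4.99) and Ikzf2 (2.90). The other 4 past the limit were higher in CD8-only barcodes, among them Eomes (0.0220, 0.000554 to 0.125), Runx3, the factor of the CD8 lineage (0.334), and Hopx (0.396). The relatives (3 of 12) and the partners (3 of 11) toward CD4-only were near the background, and 2 partners were toward CD8-only. Foxp4 stood at 2.51 and Axin2, a known target of TCF/LEF with beta-catenin, at 2.19 (1.32 to 3.59).

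Under the ribosomal limit in CD8-only barcodes, where 54.1% of all genes were upward and 19.8% downward, 9 of 12 relatives and 10 of 12 partners were past the limit upward, with Tcf12 at 7.11, Etv6 at 7.07, Tle4, a corepressor of TCF-1 and LEF1, at 4.75 and Apc at 4.52. Tle5 (0.357) and Cited2 (0.520) were past it downward. The homing genes were near that background, 9 of 20 upward and 5 downward, with Pdk1 at 2.71 and Klf3 at 2.29 against Dapl1 at 0.183 and Igfbp4 at 0.389. In CD4-only barcodes, beside 48.3% upward and 24.2% downward over all genes, 7 of 9 partners and 6 of 9 relatives were upward, and of the homing genes 5 were upward and 7 downward. The share of all genes upward went with span, from 7.80% under 10 kb to 97.3% at 100 kb or more in CD8-only barcodes. The lists were not set against genes of like span in either lineage.

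The pattern of each gene was last set beside that of 5640 genes by Pearson's r of log2 levels over the 5 groups of at least 20 barcodes. With 5 points that share 1 library and differ in depth, many genes have a high r. At 0.95 or more there were 1259 genes for Ets1, 1152 for Foxp1, 1073 for Foxo1, 1000 for Bach2, 476 for Satb1, 395 for Lef1, 52 for Tcf7 and 7 for Id3. Nearest to Lef1 were Polr1a and Satb1 (both 0.999) and Sh3pxd2a (0.998). Nearest to Tcf7 were Mettl9, Ifngr2 and Gramd1a. Between members, r was 0.917 for Lef1 and Tcf7, 0.997 for Bach2 and Foxp1, and 0.885 for Satb1 and Ets1, and Id3 ranged from -0.22 with Ets1 to 0.524 with Tcf7. Pooled levels cannot tell fewer cells that hold a transcript from less RNA in each.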

How the data were processed

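The deposited matrix holds raw UMI counts per gene and barcode, made by the authors with Cell Ranger 4 per the file headers on GRCm38 per the submitters' notes. Whether intronic reads were counted is not given in the sources used here. A second deposited table, of TCR contigs, was used for clonotypes and beta chains only (counts of chains per barcode). The matrix has 300213 barcodes, of which 184186 hold a UMI, and 12855001 UMIs. The limit of 1331 UMIs is the 99th percentile of the 3000 largest totals divided by 10, and it left 1600 barcodes with 7974264 UMIs. Doublets were not called. Levels are pooled UMIs per 10000 with exact Poisson intervals, ratios have exact conditional binomial intervals and shares have Clopper-Pearson intervals, all at 95%. Genes with at least 50 UMIs in both groups together were tested against a 1.5-fold limit. With 1 library there was no test. Group rules used UMIs of Cd4, Cd8a, Cd8b1, 3 granzymes and 84 ribosomal protein genes. The members and lists were chosen with earlier results of these data known. Named were all 8 members, up to 3 list genes with the largest ratio each way per comparison and the 3 genes most like a member, of which the text gives a part; Klf2, Axin2 and S1pr1 were described for their known roles. Levels for likeness had 0.1 added, over genes with at least 200 UMIs. Alternatives were another fold limit, minimum, denominator, mean over barcodes, thinning depth and subsets of barcodes. The ratio code was tested on simulated data. Python 3.11.15, numpy 2.4.6, scipy 1.17.1, pandas 2.3.3 and matplotlib 3.10.9 were used.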

Additional observations from a re-analysis of the deposited data

Results flagged for a closer look

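Barcodes of 200 UMIs up to the limit entered no comparison, yet they held UMIs of 7 of the 8 genes above the 3 UMIs that a count of 0 allows. In these 1908 barcodes with 721538 UMIs, Lef1 stood at 3.15 per 10000, Tcf7 at 2.02, Bach2 at 2.88, Satb1 at 2.47, Foxp1 at 4.45, Foxo1 at 0.721 and Ets1 at 3.16. Id3 had 2 UMIs, under that allowance. All 7 levels were below those of the 20532 barcodes of 10 to 50 UMIs, which stand for free RNA and held Lef1 at 4.75, Tcf7 at 4.31, Bach2 at 3.33, Satb1 at 4.43, Foxp1 at 5.83, Foxo1 at 1.31 and Ets1 at 7.21 per 10000.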

How the results depend on the processing

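No paired analysis was possible because there was 1 library, and nothing here says how far mice differ. Over the comparisons, 117 recomputed values stayed within their limits and 18 moved; over single members 586 stayed, 189 moved and 1 reversed. The count of members higher in CD4-only barcodes, 4, was 0 at a 2-fold limit and 1 without ribosomal and mitochondrial UMIs in the denominators. It was 2 by the mean over barcodes, 2 without barcodes of 9000 UMIs or more, 2 at 3000 to 6000 UMIs and 1 under the ribosomal limit. Of all genes, 12.7% were past the limit toward CD4-only at 3000 to 6000 UMIs and 8.33% under the ribosomal limit. At the other settings given here, and at the 2-fold limit with granzyme, the share of all genes was not counted. The members' median of 0.57 became 0.0754 at 3000 to 6000 UMIs and 0.32 under the ribosomal limit. Id3 reversed at 3000 to 6000 UMIs, to -0.34. With granzyme, the CD8-only count of 7 was 3 at a 2-fold limit, and the median of -0.91 was -1.18 without ribosomal and mitochondrial UMIs, -1.21 by the mean over barcodes, -1.46 with the other splits not held, -1.34 without the deepest barcodes, -1.62 under the ribosomal limit and -1.64 at 3000 to 6000 UMIs. Under the ribosomal limit, the median without ribosomal and mitochondrial UMIs was 1.24 in CD4-only and 1.43 in CD8-only barcodes, and 1.83 in the latter at 3000 to 6000 UMIs. Removing those UMIs moved all genes alike, members included, by -0.20 in the first comparison, -0.27 with granzyme, -0.38 and -0.57 under the limit. The members thus kept their distance from the median of all genes. The subsets by depth, beta chains and ribosomal share were chosen after seeing the data, and the cause of the other shifts was not tested. Id3, with 164 UMIs, is limited by depth throughout.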
